A study of Mus musculus with 19 samples.

Results

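The subject is a set of 35 genes that mark endothelial cells, the lining of blood vessels, followed in left ventricular myocardium through a reversible cardiomyopathy. The genes were listed by name, and every array probe annotated to 1 of them was taken. Probes were found for 34 of the 35 genes (50 probes among the 25697 of the array, whose probes name 16593 genes), and Cldn5 was not analysed here. Each gene is given by its probe with the highest mean over all arrays, and 10 genes had more than 1 probe. All 34 genes had a probe that passed the filter on dim probes, as did 49 of the 50 probes.

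The samples came from male mice of 12 to 20 weeks that carried MerCreMer (MCM), a Cre recombinase joined to a mutated estrogen receptor and driven by a cardiac myosin heavy chain promoter, back-crossed to C57Bl6/J. Tamoxifen free base in peanut oil was injected intraperitoneally at 1 mg (40 mg/kg) a day. The groups were control (baseline, described as non-failing, n = 5), 2 days of tamoxifen (day 2, n = 4), 3 days (day 3, n = 3), 5 days plus 5 further days (day 10, n = 3) and 5 days plus 23 further days (day 28, n = 4). The submitters describe a transient cardiomyopathy that is deepest at day 10 and has resolved by the last time point. The promoter directs Cre to cardiac muscle cells and not to endothelium. All animals are described as carriers of the transgene, and neither a vehicle group nor tamoxifen without Cre is among the samples, so an effect of the drug, of the recombinase or of time on these genes cannot be told apart.

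Endothelial cells of the heart form a dense capillary bed around the muscle cells, and supply them with oxygen and fatty acids. Their identity is held by transcription factors of the ETS and SOXF families, by receptors for vascular endothelial growth factor (VEGF) and angiopoietin, and by adhesion proteins that seal the junctions between cells. In whole tissue, fewer endothelial cells and less RNA per endothelial cell cannot be told apart. Values are log2 intensities after background correction, on which the median of all probes over all arrays was 6.83. A gene was called when limma's moderated test gave a Benjamini-Hochberg adjusted p under 0.05 over all 19273 probes tested.

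Cis-regulatory sequence was available for part of the set. RefSeq promoter windows (build GRCm38.p6, 250 bases before to 50 after the start) existed for 18 of the 35 genes, in 26 windows. The ETS core AGGAAG, read on both strands, was present in 13 of the 26 windows and in 35.4% of all 32851 windows of that length. The other ETS form searched, CCGGAA, whose matches cannot share a GGAA with those of the first, was present in 1 of 26 (3.8%) against 14.9%. Either form was present in 53.8% of these windows against 45.2% of all. SOX forms ACAAAG and ACAATG were in 15.4% and 7.7% of these windows against 18.7% and 12.6% of all, and the GATA form AGATAA in 15.4% against 11.2%. A match is a description of the letters and not of a bound site.

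Windows are printed for 4 genes called lower at day 10, chosen because they hold the ETS core, to show where it lies before genes of unlike function, with every AGGAAG or its reverse complement CTTCCT in capitals. They cover chr6:55336049-55336348 on the plus strand, chr5:147725962-147726261 on the minus strand, chr4:118489800-118490099 on the minus strand and chr9:37401722-37402021 on the plus strand, each written 5′ to 3′ along its gene.
Aqp1: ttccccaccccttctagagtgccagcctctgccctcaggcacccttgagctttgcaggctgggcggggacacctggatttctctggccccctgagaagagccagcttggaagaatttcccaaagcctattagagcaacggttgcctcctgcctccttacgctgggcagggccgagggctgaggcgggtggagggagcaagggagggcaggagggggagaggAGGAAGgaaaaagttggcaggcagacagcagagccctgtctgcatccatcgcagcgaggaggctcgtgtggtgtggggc
Flt1: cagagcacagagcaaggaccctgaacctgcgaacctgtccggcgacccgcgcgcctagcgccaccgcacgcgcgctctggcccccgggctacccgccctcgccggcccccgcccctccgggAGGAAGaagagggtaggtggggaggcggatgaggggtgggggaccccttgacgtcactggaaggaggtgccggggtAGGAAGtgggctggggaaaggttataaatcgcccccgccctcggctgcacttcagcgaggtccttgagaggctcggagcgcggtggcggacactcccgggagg
Tie1: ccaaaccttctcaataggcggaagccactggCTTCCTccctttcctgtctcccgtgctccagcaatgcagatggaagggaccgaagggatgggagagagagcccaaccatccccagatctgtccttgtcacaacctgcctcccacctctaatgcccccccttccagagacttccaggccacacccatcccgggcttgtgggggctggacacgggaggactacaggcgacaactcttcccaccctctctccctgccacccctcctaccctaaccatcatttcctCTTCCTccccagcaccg
Robo4: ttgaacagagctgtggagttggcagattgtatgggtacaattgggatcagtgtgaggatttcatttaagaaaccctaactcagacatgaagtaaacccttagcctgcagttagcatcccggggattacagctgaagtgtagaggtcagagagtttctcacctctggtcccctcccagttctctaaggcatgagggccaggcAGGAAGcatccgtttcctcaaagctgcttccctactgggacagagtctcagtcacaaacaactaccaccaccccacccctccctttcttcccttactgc
Flt1 and Tie1 held 2 matches each and Aqp1 and Robo4 held 1 each. Of other genes called lower at day 10 that had a window, Rasip1 held a match and Egfl7 held one in 2 of 3 windows. Neither window of Aqp7 nor that of Tek held any. Genes not called lower at day 10 held matches too: Eng, Emcn, Calcrl, Cav1, Ly6c1 and Erg had a window with the core. Kdr, Tal1, Clec14a and the unmeasured Cldn5 had none.

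Before any comparison, the arrays and the label of the set were examined. All 19 arrays had the same median intensity (191.479), as the deposited values are quantile-normalized. On the second principal component (24.2% of the variance) controls 4 and 5 scored 20.5 and 20.1 and controls 1 to 3 scored 1.59 to 4.38, while the day 28 arrays scored 21.1 to 23.1. Results against control are therefore also given with controls 1 to 3 alone where that changes them. For 29 of the 34 genes the best probe lay above the 50th percentile of all probes. The other 5, Kdr, Calcrl, Clec14a, Erg and Fabp4, lay between percentiles 25.3 and 42.1, although Kdr and Fabp4 are textbook genes of cardiac capillaries. Whether those 5 probes were above background is not known here, since detection values could not be assigned to samples.

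At day 10, 16 of the 34 endothelial genes were called lower than control and 1, Plvap, was called higher, where 18.1% of all probes were called lower and 17.7% higher. Taken as 1 probe per gene, 19.2% of 12939 genes were called lower and 18.2% higher. Bright probes were called more often: with a 50th percentile filter, 3491 of 12849 probes were called lower and 3185 higher. All 16 genes called lower were among the 29 above the 50th percentile. The water channel gene Aqp1 lay 3.25-fold lower, and the receptor genes Ptprb, Flt1 and Tie1 lay 2.33-fold, 2.20-fold and 2.11-fold lower. The median change over the 34 genes was -0.30 on the log2 scale, beside -0.03 over all probes tested, and the change was above 0 for 4 of the 34 genes and for 46% of all probes. All 3 day 10 arrays lay below all 5 controls in 16 of the 34 genes and in 18.2% of all probes, and below all 16 other arrays in 12 of the 34 genes and in 7.06% of all probes.

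**Figure D1:**
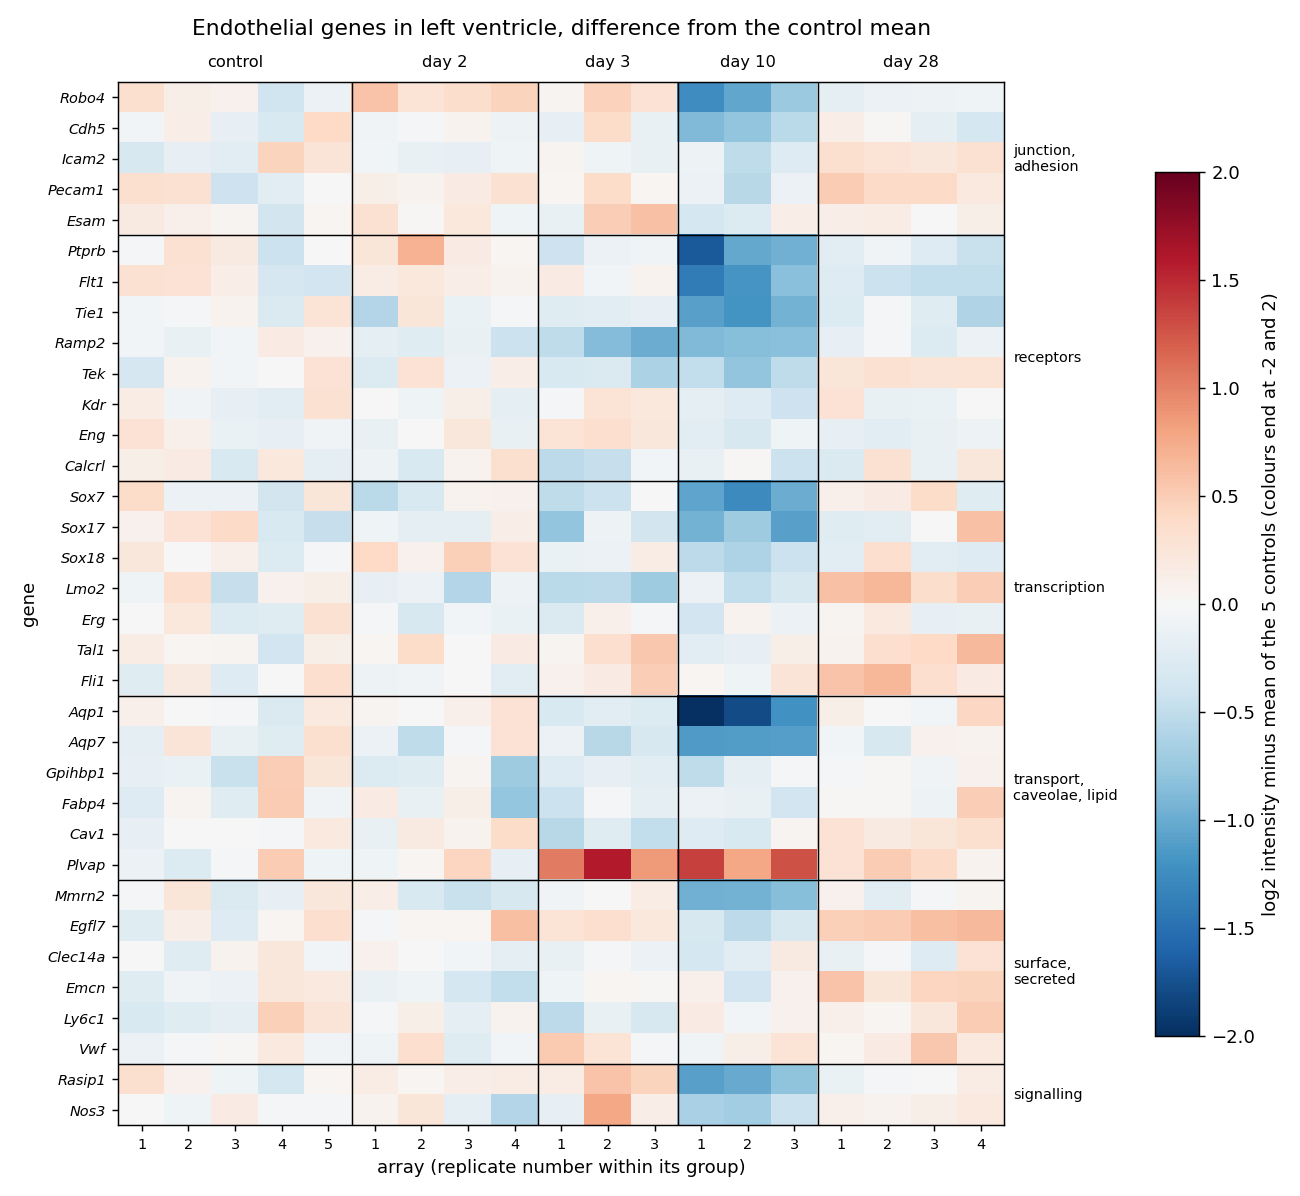
Difference of each endothelial gene from the mean of the 5 controls, in log2 units, with 1 column per array and 1 row per gene, grouped by role and ordered within a role by the change at day 10. Blue fills most rows of the 3 day 10 columns (16 genes called lower), Plvap is red at days 3 and 10, and the day 28 columns hold both colours, from -0.41 (Flt1) to 0.56 (Egfl7) on average.

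Among genes of transport and capillary lipid handling, Aqp1 encodes the water channel of capillary endothelium. Its probe (ILMN_2756486) read 13.34, 13.25, 13.22, 12.94 and 13.43 in controls 1 to 5, 13.30, 13.23, 13.34 and 13.52 at day 2, 12.94, 13.01 and 12.96 at day 3, 11.14, 11.44 and 12.02 at day 10 and 13.35, 13.24, 13.18 and 13.65 at day 28. Only the day 10 arrays stood apart from the rest, and no other group reached down to them. Aqp1 fell by 1.70 ± 0.16 SE at day 10 (limma, adjusted p = 9.94e-09). Both other probes of Aqp1 were called too, at -1.82 and -1.90.

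Aqp7, a channel for glycerol and water, read 7.72 to 8.28 in the controls and 6.83, 6.85 and 6.86 at day 10, and fell by 1.12 ± 0.16 SE (limma, adjusted p = 6.29e-06). Its 3 other probes were called lower at day 10 as well (-0.73 to -1.20). Adipocytes also express Aqp7 and Fabp4. Of 8 adipocyte markers 5 were tested, and limma called 0 at day 10 (0 at an unadjusted p under 0.05, median -0.03), where 18.1% of all probes were called lower. That list was dim, with a median log2 value of 6.43 to 6.57 in control and 6.40 to 6.66 at day 10, below the 6.83 of all probes. A change in adipocytes could therefore have been missed. Gpihbp1, which carries lipoprotein lipase to the capillary surface, read 10.34 to 11.28 in control and 10.27, 10.59 and 10.74 at day 10 (-0.25, adjusted p = 0.3), so that the groups overlapped. Cav1, the coat protein of caveolae, and the fatty acid binding protein gene Fabp4 had changes of -0.17 and -0.22 that did not pass.

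Plvap moved against the set. It encodes the diaphragm protein of fenestrae and caveolae, and is sparse in normal cardiac capillaries. The Plvap probe read 7.84, 7.68, 7.93, 8.46 and 7.86 in controls 1 to 5, 7.88, 7.99, 8.39 and 7.79 at day 2, 9.00, 9.55 and 8.80 at day 3, 9.32, 8.73 and 9.23 at day 10 and 8.25, 8.47, 8.34 and 8.02 at day 28. All arrays of days 3 and 10 lay above all controls, day 2 overlapped control, and day 28 did too. Plvap rose 2.24-fold at day 3 (limma, adjusted p = 3.85e-05) and 2.20-fold at day 10 (adjusted p = 2.93e-05), and fell by 0.82 ± 0.20 SE from day 10 to day 28 (adjusted p = 0.00206).

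Of 8 receptor genes and their partners, 5 fell at day 10. Flt1, VEGF receptor 1, read 12.55, 12.54, 12.38, 11.91 and 11.86 in controls 1 to 5 and 12.40, 12.46, 12.39 and 12.32 at day 2. It read 12.41, 12.20 and 12.32 at day 3, 10.85, 11.07 and 11.41 at day 10 and 11.99, 11.82, 11.76 and 11.76 at day 28. Controls 4 and 5 were lower than controls 1 to 3, and the day 28 arrays lay with controls 4 and 5. Flt1 fell by 1.14 ± 0.16 SE at day 10 (limma, adjusted p = 2.39e-06), and by 1.38 against controls 1 to 3 alone. At day 28 it differed from control by -0.41 (adjusted p = 0.141), and was called lower against controls 1 to 3 alone (-0.66, adjusted p = 0.00237) and without control 5 (adjusted p = 0.0411). The second Flt1 probe was called lower at day 28 with all controls (-0.70, adjusted p = 0.0348).

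The angiopoietin system includes the receptor Tek (Tie2), its relative Tie1, and the phosphatase Ptprb (VE-PTP), which acts on Tek and on the junctions. Ptprb read 11.48, 11.82, 11.69, 11.08 and 11.51 in control, 11.10, 11.40 and 11.45 at day 3, 9.83, 10.50 and 10.56 at day 10 and 11.30, 11.44, 11.26 and 11.07 at day 28. Its fall at day 10 was 1.22 ± 0.18 SE (limma, adjusted p = 5.91e-06), with day 10 array 1 the lowest of all 19. Its day 2 arrays (11.56 to 12.21) lay within the control range or above it.

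Tie1 read 8.80, 8.82, 8.92, 8.56 and 9.12 in controls 1 to 5, 8.60, 8.63 and 8.69 at day 3, 7.75, 7.66 and 7.90 at day 10 and 8.57, 8.81, 8.60 and 8.25 at day 28. The mean went from 8.85 ± 0.20 (SD, n = 5) to 7.77 ± 0.12 (SD, n = 3) and then to 8.56 ± 0.23 (SD, n = 4), and the day 10 arrays did not overlap any other group. The fall at day 10 was 1.08 ± 0.16 SE (limma, adjusted p = 6.34e-06). Tek read 9.91 to 10.53 in control, 9.93, 9.94 and 9.60 at day 3, 9.74, 9.44 and 9.72 at day 10 and 10.47, 10.55, 10.50 and 10.50 at day 28, so that days 3 and 10 overlapped each other. Tek was lower by 0.41 at day 3 (adjusted p = 0.0337) and by 0.60 at day 10 (adjusted p = 0.0017).

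Ramp2 pairs with Calcrl to form the receptor for adrenomedullin, a peptide that keeps vessels intact. It read 11.41, 11.32, 11.41, 11.62 and 11.56 in control, 11.28, 11.22, 11.31 and 11.04 at day 2, 10.96, 10.60 and 10.48 at day 3, 10.58, 10.62 and 10.64 at day 10 and 11.31, 11.44, 11.20 and 11.35 at day 28. All arrays of days 2, 3 and 10 lay below every control, and limma called days 3 and 10 (-0.79 ± 0.12 SE, adjusted p = 2.24e-05, and -0.85 ± 0.12 SE, adjusted p = 4.22e-06). At day 2 it differed from control by -0.25 (adjusted p = 0.215). Between days 3 and 10 it differed by -0.07 (adjusted p = 0.772). Calcrl, the membrane-spanning part of that receptor, was dim and had a change of -0.19 at day 10. Kdr, VEGF receptor 2, was dim too (-0.29 at day 10), and the TGF-beta coreceptor gene Eng had -0.20; neither passed. Eng read 10.41 to 10.86 in control, 10.85, 10.91 and 10.81 at day 3 and 10.37, 10.27 and 10.49 at day 10, and its day 3 arrays lay in the upper part of the control range or above it.

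At the junctions, Robo4, a receptor that stabilises vessels, and Cdh5, the vascular cadherin of adherens junctions, were lower at day 10. Robo4 read 11.50, 11.31, 11.27, 10.79 and 11.06 in controls 1 to 5, 11.76, 11.45, 11.53 and 11.64 at day 2, 11.24, 11.65 and 11.48 at day 3, 9.94, 10.15 and 10.44 at day 10 and 10.98, 11.06, 11.09 and 11.10 at day 28. The day 10 arrays were below all others, and the day 2 and day 3 arrays overlapped the control range. Robo4 fell by 1.01 ± 0.15 SE (limma, adjusted p = 5.99e-06), while its 2 other probes, both below the median of all probes, showed no change that passed (-0.08 and 0.03). Cdh5 read 8.71 to 9.42 in control and 8.14, 8.23 and 8.47 at day 10 (-0.74 ± 0.16 SE, adjusted p = 0.000553). At day 28 Cdh5 read 9.15, 9.04, 8.83 and 8.66, all above the day 10 arrays.

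Pecam1 (CD31), the adhesion molecule most used to stain vessels, gave probes that differed in call. The probe with the higher mean read 10.07 to 10.82 in control and 10.37, 9.95 and 10.38 at day 10 (-0.26, adjusted p = 0.22), with overlap. The other Pecam1 probe was called lower (-0.71, adjusted p = 0.000204). Leukocytes and platelets also express Pecam1. The adhesion genes Esam and Icam2 had -0.16 and -0.29 at day 10 and did not pass. Icam2 read 9.37 to 10.14 in control, 9.58, 9.19 and 9.43 at day 10 and 10.01, 9.97, 9.92 and 9.99 at day 28. Esam read 11.37 to 11.92 in control, 11.60, 12.23 and 12.32 at day 3 and 11.39, 11.47 and 11.87 at day 10, with overlap among the groups.

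**Figure D2:**
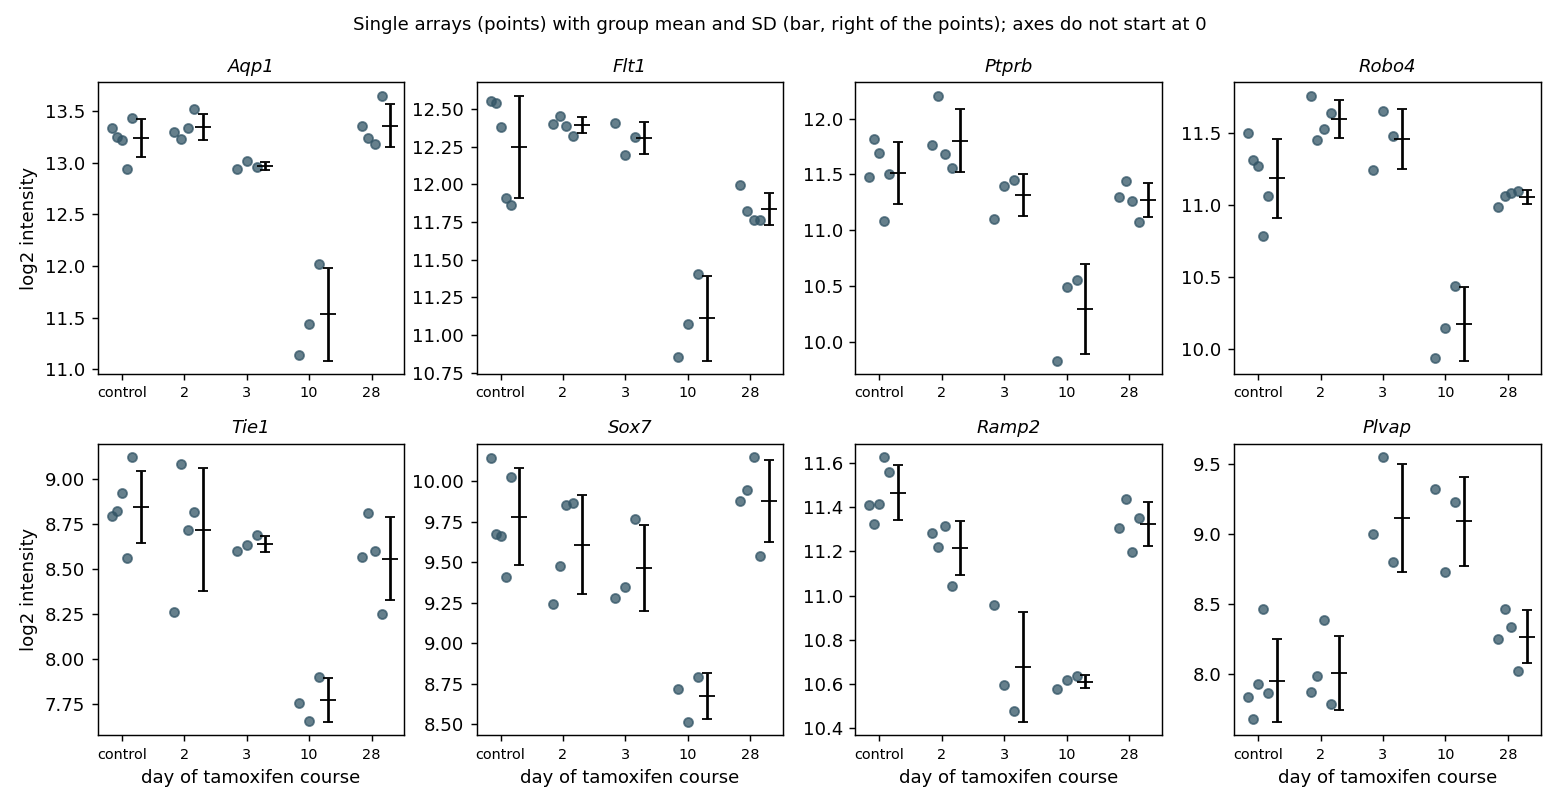
Log2 intensity of 8 genes on each array (points) with group mean and SD (bars), by day of the tamoxifen course; the axes differ between genes and do not start at 0. In the panels of Aqp1, Flt1, Ptprb, Robo4, Tie1 and Sox7 the 3 day 10 arrays lie below every other array. At days 3 and 10 Ramp2 is low and Plvap is high.

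Of 7 transcription regulators, the SOXF genes Sox7, Sox17 and Sox18, which specify arterial and other endothelium, all fell at day 10. Sox7 read 9.41 to 10.14 in the controls, 8.72, 8.51 and 8.79 at day 10 and 9.88, 9.95, 10.15 and 9.54 at day 28. Its fall at day 10 was 1.11 ± 0.18 SE (limma, adjusted p = 2.03e-05). Sox17 read 8.53 to 9.37 in control, 8.20, 8.88 and 8.62 at day 3, 8.03, 8.28 and 7.89 at day 10 and 8.74, 8.76, 8.99 and 9.57 at day 28, with day 3 between control and day 10 and overlapping both. Sox17 fell by 0.92 (adjusted p = 0.000681) and Sox18 by 0.53 (adjusted p = 0.00523), and the second probes of Sox7 and Sox17 were called lower too. The ETS factor genes Fli1 and Erg had 0.07 and -0.14, and the Erg probe was dim. Tal1 and Lmo2, partners in a complex shared by blood and endothelial cells, had -0.08 and -0.31. None of those 4 passed the test at day 10, but Lmo2 was called lower without control 3 (adjusted p = 0.0245).

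Signalling genes were lower as well. Rasip1, a Ras-interacting protein needed for vessel lumens, read 9.38, 9.16, 8.98, 8.72 and 9.11 in controls 1 to 5, 9.22, 9.63 and 9.51 at day 3, 7.99, 8.07 and 8.27 at day 10 and 8.95, 9.05, 9.08 and 9.22 at day 28. At day 3, 2 of 3 arrays exceeded every control, and day 10 lay below every other array. Rasip1 fell by 0.96 ± 0.14 SE at day 10 (limma, adjusted p = 3.76e-06). Nos3, endothelial nitric oxide synthase, went from 9.51 ± 0.10 (SD, n = 5) to 8.92 ± 0.14 (SD, n = 3) (-0.59, adjusted p = 0.00803). Of its 2 other probes, 1 was called lower (-0.47) and 1 was not (-0.23).

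Among surface and secreted glycoproteins, Mmrn2, a matrix protein that binds Clec14a, fell by 0.92 ± 0.14 SE at day 10 (limma, adjusted p = 1.25e-05), from 10.02 to 10.54 in control to 9.34, 9.37 and 9.46. Egfl7, a secreted factor of vessel matrix, was only just called (-0.39, adjusted p = 0.0421). It was not called against controls 1 to 3 alone (-0.27, adjusted p = 0.206), with the replicate number as a block (0.217) or without control 2, 4 or 5 or any 1 of the 3 day 10 arrays (0.0644 to 0.172). Of its 2 other probes, 1 was called lower (-0.62, adjusted p = 0.00149) and 1 was not (0.00).

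Genes of this class that did not pass at day 10 were Emcn, the capillary and venous sialomucin (-0.06), Vwf, von Willebrand factor (0.10), and Ly6c1 (0.07). Clec14a was dim (-0.12). Platelets also carry Vwf, and monocytes express the near-identical paralog Ly6c2, from which the Ly6c1 probe was not shown to be distinct. The Vwf probe read 9.89 to 10.21 in control and 9.94, 10.13 and 10.28 at day 10, and the Ly6c1 probe 12.21 to 12.98 and 12.68, 12.46 and 12.59, with overlap in both. Emcn read 11.17 to 11.65 in control, 11.52, 11.03 and 11.50 at day 10 and 11.99, 11.65, 11.84 and 11.86 at day 28. Counted by role, 5 of 8 receptors, 3 of 7 transcription regulators and 2 of 6 transport genes fell. So did 2 of 6 glycoproteins, 2 of 5 junction genes and both signalling genes, where 18.1% of all probes were called lower.

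**Figure D3:**
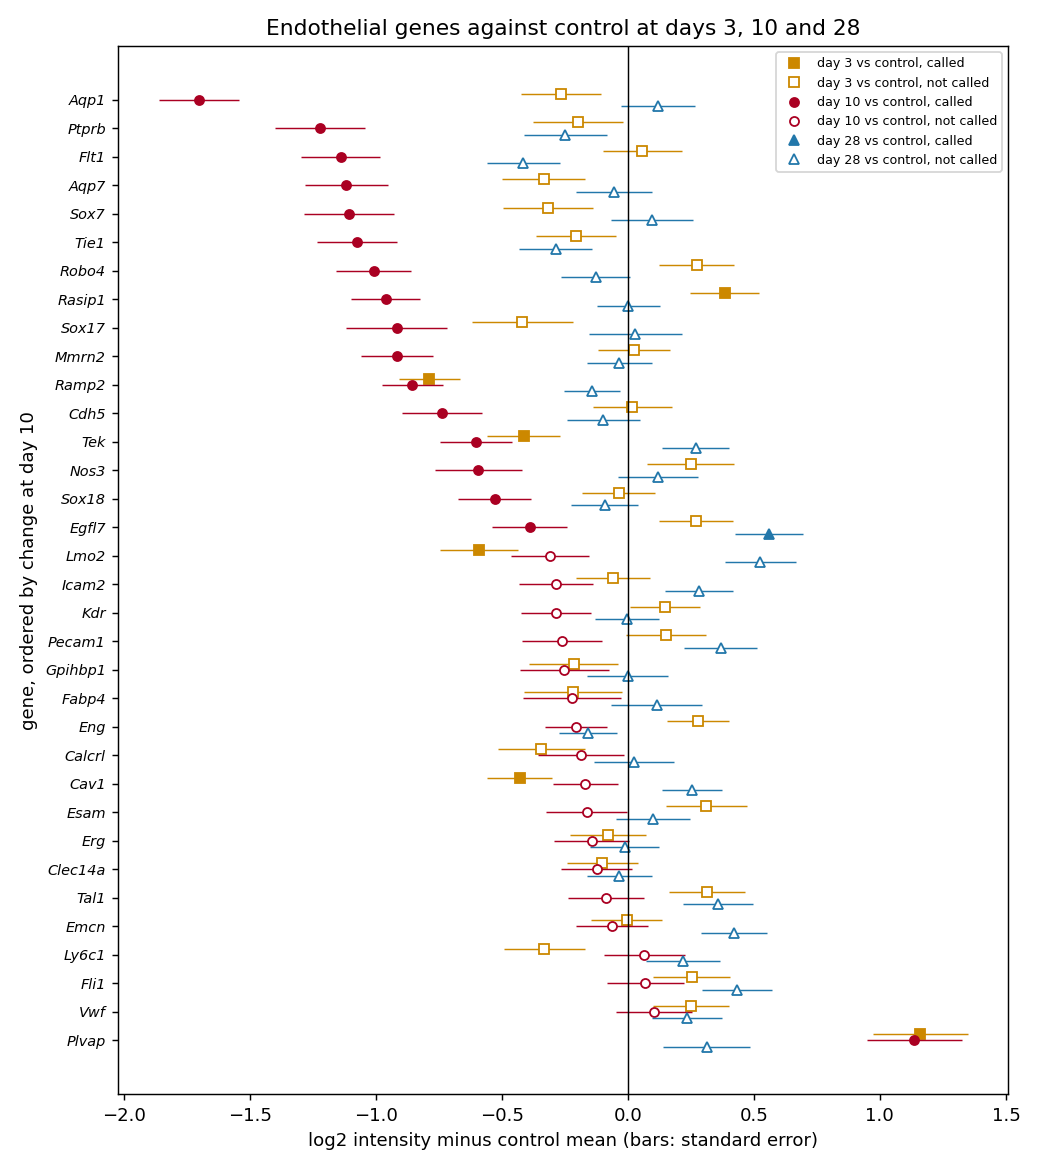
Change of each endothelial gene against control at day 3 (squares), day 10 (circles) and day 28 (triangles), in log2 units with standard errors; filled symbols passed the test. The day 10 circles spread from -1.70 (Aqp1) to 1.14 (Plvap), and the day 28 triangles from -0.41 (Flt1) to 0.56 (Egfl7).

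At day 2, limma called 0 of 34 endothelial genes in either direction (2 higher and 2 lower at an unadjusted p under 0.05), where 3.39% of all probes were called higher and 3.24% lower. The changes ran from -0.29 (Gpihbp1) to 0.41 (Robo4), with a median of -0.03. Without control 1, Robo4 was called higher at day 2 (adjusted p = 0.0335).

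At day 3, 4 of 34 genes were called lower and 2 higher, where 14.3% and 14.1% of all probes were. The 4 were Ramp2, Lmo2 (-0.59, adjusted p = 0.00493), Cav1 (-0.43, adjusted p = 0.0141) and Tek, and those called higher were Plvap and Rasip1 (0.38, adjusted p = 0.0363). Cav1 read 12.87 to 13.22 in control and 12.47, 12.79 and 12.54 at day 3. Lmo2 read 10.20 to 10.996 in control and 10.12, 10.13 and 9.95 at day 3. For both genes all 3 day 3 arrays were below all controls. The median change of the 34 genes at day 3 was -0.05, beside -0.02 over all probes.

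The calls of Tek, Cav1 and Rasip1 at day 3 did not hold under each setting, while those of Ramp2, Lmo2 and Plvap held under all that were run. Against controls 1 to 3 alone the adjusted p was 0.153 for Tek, 0.0594 for Cav1 and 0.159 for Rasip1, and Sox17 was called lower (-0.67, adjusted p = 0.0128, beside -0.42 and 0.129 with all controls). Tek lost its call without control 2 or 5 or day 3 array 3 (0.0619, 0.0893 and 0.204). Cav1 lost it without day 3 array 1 or 3 (0.0747 and 0.0588), and Rasip1 without control 3 or 4 or day 3 array 2 or 3 (0.0706 to 0.197). Calls appeared for Esam without day 3 array 1 (0.013), Eng without control 1 (0.0371) and Sox17 without control 5 (0.0476).

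Directly between days 3 and 10, 16 of 34 genes were called lower at day 10 and limma called 0 higher (1 at an unadjusted p under 0.05), where 15.4% and 16% of all probes were. With a 50th percentile filter, 2923 of 12849 probes were called lower and 3006 higher. The median difference was -0.42, beside 0.0022 over all probes. This comparison and the one with control share the 3 day 10 arrays. Rasip1 differed by -1.34 ± 0.15 SE (adjusted p = 3.24e-07), Aqp1 by -1.44 (adjusted p = 1.1e-06) and Robo4 by -1.28 (adjusted p = 2.03e-06). Eng (-0.48), Esam (-0.48) and Kdr (-0.43) were also called lower than at day 3. Ramp2, Sox17 and Tek were not called, with -0.07, -0.50 and -0.19. The smallest calls rested on few arrays: Esam was not called without day 3 array 2 or 3 or day 10 array 1 or 2 (0.142 to 0.229). Kdr was not called without day 3 array 2 or 3 or day 10 array 2 or 3 (0.0643 to 0.126), nor Sox18 without day 3 array 3 or day 10 array 1 or 2 (0.0543 to 0.111). Sox17 was called without day 3 array 1 (0.0352), and Tal1 without day 3 array 1 (0.0333) or day 10 array 3 (0.0495).

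At day 28, 22 of the 34 endothelial genes were called higher than at day 10 and 1, Plvap, was called lower, where 15% of all probes were called in each direction. With a 50th percentile filter, 2917 of 12849 probes were called higher and 2747 lower. The median difference was 0.60 on the log2 scale, beside 0.01 over all probes. Aqp1 rose 3.54-fold (limma, adjusted p = 1.39e-08), Sox7 2.30-fold (adjusted p = 1.9e-05) and Aqp7 2.09-fold (adjusted p = 3.27e-05). Flt1 was counted by its best probe (0.73). Its second probe read 6.38, 6.55 and 6.74 at day 10 and 6.48, 6.66, 6.48 and 6.32 at day 28, with no rise. The dimmer probes of Robo4 and the dimmest of Egfl7 overlapped between these groups too. Other probes of Aqp1, Aqp7, Nos3, Pecam1, Sox7 and Sox17 lay above all day 10 arrays on every day 28 array. The 3 day 10 arrays are those of the comparison with control. All 4 day 28 arrays lay above all 3 day 10 arrays in 23 of the 34 genes and in 19.5% of all probes.

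Lmo2 was among the 22 genes. It read 10.54, 10.16 and 10.33 at day 10 and 11.25, 11.32, 11.01 and 11.16 at day 28, above 10.20 to 10.996 in control, and rose by 0.84 ± 0.16 SE (limma, adjusted p = 0.000254). Pecam1 rose by 0.63, Icam2 by 0.57, Emcn by 0.48, Tal1 by 0.44 and Cav1 by 0.42. Several of these rested on day 10 array 2, the lowest of that group for Pecam1, Icam2 and Emcn. Without it the adjusted p was 0.0523 for Pecam1, 0.0525 for Icam2, 0.15 for Emcn, 0.104 for Cav1, 0.112 for Sox18 and 0.118 for Tal1, and 16 genes were called. Cav1, Sox18 and Tal1 were not called without day 10 array 1 either (0.0812, 0.0774 and 0.138). Without day 28 array 2 neither Sox18 (0.139) nor Tal1 (0.0544) was, and Tal1 was not without day 28 array 3 or 4 (0.0677 and 0.123). Fli1 was called without day 28 array 4 (0.0444).

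Against control, 1 of 34 genes was called higher at day 28 and limma called 0 lower (8 higher and 1 lower at an unadjusted p under 0.05), where 1.11% of all probes were called higher and 0.69% lower. The gene was Egfl7, which read 12.00, 12.36, 11.97, 12.28 and 12.56 in control and 12.71, 12.74, 12.84 and 12.88 at day 28, above every control (0.56 ± 0.14 SE, limma, adjusted p = 0.0342). The call was lost without control 1, 2 or 3 or day 28 array 2, 3 or 4 (adjusted p = 0.0503 to 0.118). The other Egfl7 probes overlapped control. The brighter of them read 10.03 to 10.88 in control and 10.82 to 10.94 at day 28, and the dimmer 6.74 to 7.46 and 6.92 to 7.50. With controls 1 to 3 alone 6 genes were called higher and 1 lower, where that setting called 4.8% of all probes higher and 4.92% lower. Egfl7, Lmo2 (0.59), Emcn (0.56), Fli1 (0.54), Icam2 (0.52) and Ly6c1 (0.46) were higher, and Flt1 was lower. Without control 5, Lmo2 (0.0397) and Fli1 (0.0365) were called, without control 4, Lmo2 (0.0446) and Emcn (0.0497), and without control 2, Lmo2 (0.0357). For the other genes the lack of a call at day 28 does not show that their levels were equal.

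Lists of related vascular genes show how neighbouring pathways stood at day 10, where 18.1% of all probes were called lower and 17.7% higher. These lists and those that follow, like the endothelial genes, were chosen with earlier results of these data known. Their counts are therefore descriptive. Of 33 other endothelial genes 13 were called lower and 3 higher (median -0.29), among them the capillary carbonic anhydrase gene Car4 (-1.53) and the transcription factor gene Gata2 (-1.07). Of 14 Notch pathway genes 8 were lower and 1 higher (median -0.36), among them the receptors Notch1 (-0.83) and Notch4 (-0.59). Of 12 BMP and KLF genes 4 were lower and 0 higher (median -0.27), including the flow-responsive factor gene Klf2 (-1.21) and the anticoagulant receptor gene Thbd (-1.16).

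Ligands and partners of the endothelial receptors were also measured, and their counts stand beside 18.1% of all probes called lower and 17.7% higher at day 10. At day 10 Vegfa, a ligand of Flt1 and Kdr, lay at -1.68 (adjusted p = 2.11e-05). Vegfb, a ligand of Flt1, lay at -1.74 (adjusted p = 4.35e-10), and Angpt2, a ligand of Tek, was higher (0.68). In the list of VEGF and angiopoietin genes 3 of 11 were lower and 1 higher (median -0.23). Lpl, the lipase held by Gpihbp1, fell by 0.93, and Tcf15, a factor that with Meox2 drives fatty acid transport in heart endothelium, by 1.51; in a list of such partners and of lipid uptake genes 8 of 27 were lower and 4 higher (median -0.03).

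Genes that endothelium switches on in inflammation are a separate list. At day 10, 7 of 11 activation genes were called higher by limma and 0 lower (0 lower at an unadjusted p under 0.05), with a median of 1.00. Of all probes, 17.7% were called higher and 18.1% lower. P-selectin (Selp) read 6.58 to 7.14 in control and 9.00, 8.99 and 9.08 at day 10 (2.09, adjusted p = 3.25e-06), and Vcam1, an adhesion receptor for leukocytes, read 9.34 to 10.19 and 11.72, 11.83 and 10.83 (1.71, adjusted p = 8.86e-06). At day 3, 7 of 11 were already higher, among them Cx3cl1 (2.45), where 14.1% of all probes were called higher. Leukocytes and fibroblasts also express several of these genes, and their cell of origin was not tested. At day 28 Vcam1 was still above control (1.70, adjusted p = 0.000178), as was the chemokine gene Ccl2 (1.55, adjusted p = 0.00417).

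**Figure D4:**
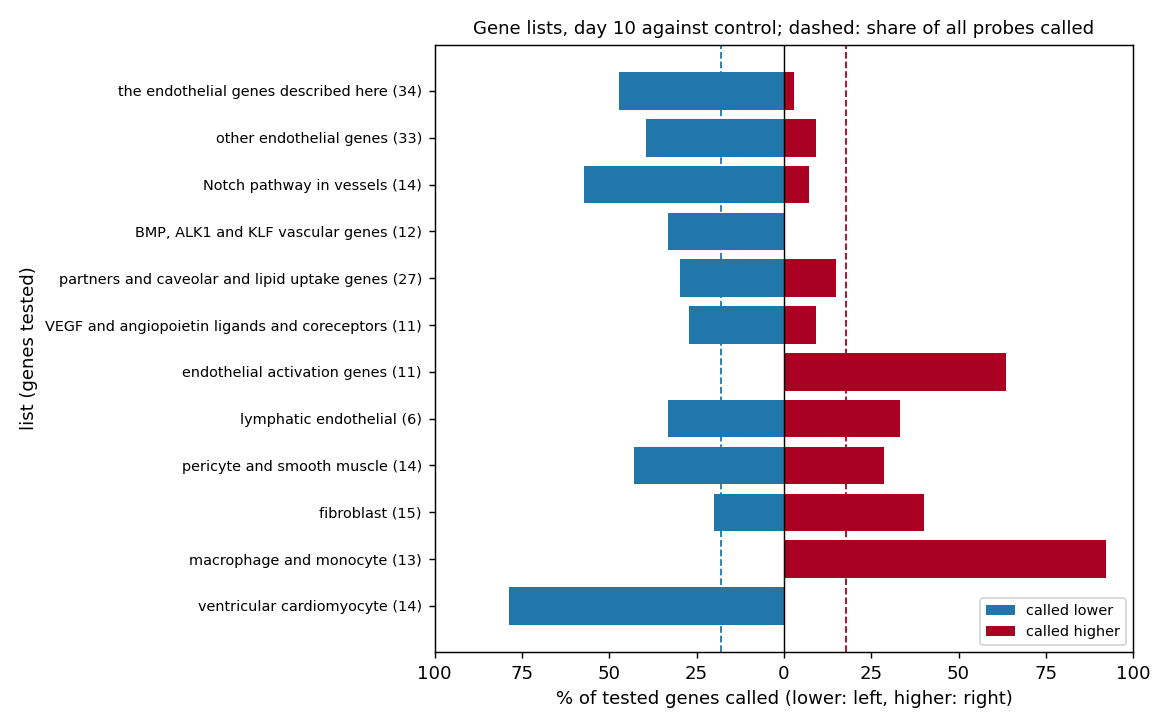
Percent of tested genes called lower (bars to the left) and higher (bars to the right) at day 10 against control in each list, with the number tested in brackets and dashed lines at the shares of all probes (18.1% lower, 17.7% higher). The endothelial genes described here reach 47.1% lower and 2.94% higher, while 63.6% of activation genes and 92.3% of macrophage markers lie to the right.

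Markers of other cells moved at the same time, where 18.1% of all probes were called lower and 17.7% higher. Of 13 macrophage and monocyte markers tested, 12 were higher at day 10 and 0 lower, and their summed intensity was 51300 to 81000 on the day 10 arrays and 7230 to 18700 in control. Of 14 cardiomyocyte markers 11 were lower and 0 higher, with a sum of 262000 to 301000 against 368000 to 423000. Fibroblast markers had 6 higher and 3 lower of 15 (38000 to 46900 against 34900 to 45700). Pericyte and smooth muscle markers had 4 higher and 6 lower of 14 (38100 to 44000 against 21300 to 31900, and 34200 to 39900 at day 2). A sum is weighted to its brightest genes. The median log2 value of the pericyte and smooth muscle markers went the other way, with 8.26 to 8.40 at day 10 against 8.75 to 9.26 in control. The sums at day 28 were 12400 to 16500 for macrophage and 347000 to 365000 for cardiomyocyte markers, and at day 3 10500 to 19400 and 344000 to 364000. The endothelial genes summed to 41300 to 50100 at day 10, 61400 to 69700 in control and 68600 to 74900 at day 28. None of the defining markers was at 0, since array intensities carry background. Adgre1, which defines macrophages, read 8.16 to 9.33 in control and 10.34 to 10.84 at day 10. The part of these shifts in the values of the endothelial genes was not tested.

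Other cells share markers with vascular endothelium. Their counts at day 10 stand beside 18.1% of all probes called lower and 17.7% higher. Of lymphatic endothelial markers at day 10 limma called 2 higher and 2 lower of 6, with Lyve1 at 0.53 and Prox1, which muscle cells express too, at -1.39. Of endocardial markers it called 1 higher and 1 lower of 6, and the gene called higher was Plvap, which that list shares with the set. Of platelet markers, which bear on Vwf and Pecam1, limma called 2 higher and 0 lower of 6 (1 lower at an unadjusted p under 0.05). Their median change was -0.004, with 3 above 0 and 3 below, and Pf4 lay at 2.21. The sum was 5560 to 7180 against 1490 to 2770 in control, while the median log2 value was 6.75 to 7.02 against 6.82 to 7.27. The cell of origin of Pf4 was not tested. Red cell markers at day 10 had 0 higher and 2 lower of 5.

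Over the 29 genes with probes above the 50th percentile, the median difference of an array from the control means was -0.62 to -0.43 on the 3 day 10 arrays. It was -0.17 to 0.12 on the controls themselves, -0.07 to 0.04 at day 2, -0.13 to -0.01 at day 3 and 0.07 to 0.15 at day 28. The lowest control by this measure was control 4 and the highest control 5, although these 2 arrays lay together on the principal components.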

How the data were processed

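Total RNA from left ventricular myocardium was labelled with biotin and hybridised to Illumina bead arrays, per the labels' protocols. The table used holds intensity values that the authors deposited on a linear scale and already quantile-normalized: sorted values of all 19 arrays were identical, from 116.032 to 57814.4. The program, background step and probe build are not given in the sources used here. A second table of scanner signals was not used, because its 38 value columns match no sample label, so detection values could not be assigned.

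Intensities were background-corrected (normexp, offset 50) and converted to log2. Of 25697 probes, the 19273 at or above the 25th percentile of mean intensity (162.92) were fitted with limma 3.58.1 in R 4.3.3, with 1 mean for each of 5 groups over all 19 arrays (14 residual and 9.66 prior degrees of freedom). Adjusted p-values are Benjamini-Hochberg values of limma's two-sided moderated test over all probes tested, and probes were called under 0.05. Comparisons were each tamoxifen group with control, day 10 with day 3 and day 28 with day 10. Fold changes are on the background-corrected scale, whose offset shrinks changes of dim probes. The scripts were tested on simulated data. Summaries used Python 3.11.15, pandas 2.3.3 and matplotlib 3.10.9. No label states that arrays of a group came from separate animals, so p-values measure the spread between arrays, whose number limits the precision. In GEO's platform annotation 23978 probes have 1 symbol, 0 several and 1719 none. Probes were matched to genes by the Entrez gene identifiers of that annotation and named by RefSeq symbols. The platform symbol was used where no identifier matched.

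All listed genes are accounted for, and at most 4 called genes of each other list per comparison are named (smallest adjusted p), besides defining markers. The endothelial genes and the other lists were chosen with earlier results of these data known. Alternatives were each array left out in turn, controls 1 to 3 alone, only the groups compared, array weights, a trend with robust moderation of the variances, replicate number as a block, no background correction, no filter or a 50th percentile filter, and counting any probe of a gene.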

Additional observations from a re-analysis of the deposited data

Results flagged for a closer look

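Of 102 groups of 4 or 5 arrays of 1 endothelial gene, 5 held an array far from the others of its group by Dixon's test, which chance gives in about 1 of 20 groups. These were Esam in control 4 at 11.37, Tal1 in control 4 at 6.515, Egfl7 in day 2 array 4 at 12.84, Lmo2 in day 2 array 3 at 10.07 and Sox18 in day 28 array 2 at 9.732, all as log2 intensity.

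For 16 genes the change against control differed between day 10 and day 3 by limma's test of that difference, which equals the direct comparison of day 10 with day 3. As log2 of day 10 over day 3, the differences were Aqp1 (-1.437), Rasip1 (-1.344), Robo4 (-1.281), Flt1 (-1.197), Ptprb (-1.023), Mmrn2 (-0.9406), Tie1 (-0.8707), Nos3 (-0.8427), Sox7 (-0.7911), Aqp7 (-0.783), Cdh5 (-0.7552), Egfl7 (-0.6606), Sox18 (-0.4915), Eng (-0.4819), Esam (-0.4751) and Kdr (-0.4344). All 16 lay in the same direction.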

How the results depend on the processing

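At day 10 against control, 15 to 17 endothelial genes were called lower and 1 higher under every alternative run, and 16 of the 17 calls held under all of them (the exception was Egfl7). Of 63 calls over all comparisons, 49 held under every alternative, and no change of a called gene reversed. Of 3132 values of single genes under alternatives, 42 gained and 60 lost a call. The causes of these changes were not tested.

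Counts called higher at day 3 (2 in the text) were 1 with only the groups compared, 5 with array weights, 1 with controls 1 to 3 alone and 1 to 3 when arrays were left out in turn. Counts called lower at day 3 (4 in the text) were 2 to 4 when arrays were left out. At day 28 against control, 1 was called higher in the text, 2 without background correction, 2 with the 50th percentile filter, 4 with array weights, 6 with controls 1 to 3 alone and 0 to 3 when arrays were left out. Called lower there were 0 in the text, 1 with array weights, 1 with controls 1 to 3 alone, 1 when any probe counted and 0 to 1 when arrays were left out. At day 2, 0 to 1 were called higher when arrays were left out. For day 10 against day 3, 1 was called higher with array weights, and 13 to 18 lower when arrays were left out. For day 28 against day 10, 16 to 22 were called higher when arrays were left out, with 16 without day 10 array 2.

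The replicate numbers did not visibly pair the arrays. Of 33 pairs of the same number, 3 had a correlation of deviations over 0.1 (median -0.0009). Among pairs of other numbers, 13 of 110 did (median -0.0026). Of the 19 arrays, 5 correlated best with their own number. With the replicate number as a block, 2 genes were called lower at day 3, and at day 28 against control 3 were called higher and 1 lower.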
